A study of Homo sapiens with 12 samples.

Results

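The clustered histone genes were examined in HL-60, a long-established promyelocytic line from a human leukaemia, after treatment with decitabine or its vehicle DMSO. A gene was a member when its symbol in the deposited table was H1-, H2AC, H2BC, H3C or H4C followed by a number. The rule reads symbols alone, but it was set with earlier results of these data known. Described here are 68 such genes of 60240 listed, of which 9 encode linker histone H1, 16 histone H2A, 17 histone H2B, 12 histone H3 and 14 histone H4. By their known use, 62 members were classed as canonical, 5 as germ-line type (H1-6, H1-7, H1-8, H2AC1 and H2BC1) and H1-10 as a replication-independent linker histone. The cells were the unmodified (wild type) line and carried no other labelled treatment or allele. Wild type says nothing here about the mutations of the leukaemia line itself. Treated cultures received decitabine at 100 nM at 0, 24 and 48 h, and RNA was taken at 6, 72 and 120 h, so that cells taken at 6 h had received the first dose only. Values were at hand for 2 libraries each of decitabine 6 h, DMSO 6 h, decitabine 72 h, decitabine 120 h and DMSO 120 h, and for 1 library of DMSO 72 h, while DMSO 72 h replicate 2 was not analysed here. The duplicates were wells, and no source names independent cultures, so each p-value here reflects library-to-library spread alone, which may be technical.

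Canonical histone genes are replication-dependent: they are intronless, lie in clusters and are transcribed in S phase to package newly made DNA. Their mRNAs end in a stem-loop bound by SLBP instead of a poly(A) tail. Germ-line histones such as H1-6, the linker histone of spermatocytes, and the H2AC1 and H2BC1 pair of the testis are silent in most somatic cells. Decitabine, an analogue of deoxycytidine, enters replicating DNA and binds DNA methyltransferases covalently there, so that methylation of CG dinucleotides is lost as cells divide. RNA was depleted of ribosomal RNA and not selected for poly(A), a preparation that keeps mRNAs that end in a stem-loop.

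The promoters of 5 histone genes that stood far higher in late decitabine cells, and of H1-4 as a linker histone gene with high values in every library, are shown for their content of CG dinucleotides, which are set in capitals. Each window runs from 250 bases before to 50 bases after the gene start and is given 5′ to 3′ on the gene's own strand, from RefSeq with build GRCh38.p14. H1-6 is read at chr6:26108086-26108385 on the minus strand, H1-1 at chr6:26017738-26018037 on the minus strand and H2AC14 at chr6:27814728-27815027 on the minus strand. H3C3 is read at chr6:26045134-26045433, H2BC6 at chr6:26183511-26183810 and H1-4 at chr6:26156079-26156378, all on the plus strand.
H1-6: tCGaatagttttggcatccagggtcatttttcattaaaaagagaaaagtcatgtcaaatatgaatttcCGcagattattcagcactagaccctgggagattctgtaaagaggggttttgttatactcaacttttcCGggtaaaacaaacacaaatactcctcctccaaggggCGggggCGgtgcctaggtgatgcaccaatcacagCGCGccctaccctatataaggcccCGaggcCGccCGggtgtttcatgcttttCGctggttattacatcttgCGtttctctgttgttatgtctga
H1-1: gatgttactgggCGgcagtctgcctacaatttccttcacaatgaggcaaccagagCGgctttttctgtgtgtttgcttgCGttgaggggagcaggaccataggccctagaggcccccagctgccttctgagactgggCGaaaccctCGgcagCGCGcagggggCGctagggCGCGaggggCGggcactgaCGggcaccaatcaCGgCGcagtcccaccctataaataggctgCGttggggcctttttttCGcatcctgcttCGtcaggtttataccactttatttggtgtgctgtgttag
H2AC14: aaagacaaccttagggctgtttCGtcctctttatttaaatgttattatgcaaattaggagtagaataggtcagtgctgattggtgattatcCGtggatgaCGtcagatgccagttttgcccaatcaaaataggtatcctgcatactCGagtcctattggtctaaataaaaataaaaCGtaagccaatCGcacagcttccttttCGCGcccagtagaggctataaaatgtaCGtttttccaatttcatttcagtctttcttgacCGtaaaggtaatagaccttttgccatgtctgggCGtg
H3C3: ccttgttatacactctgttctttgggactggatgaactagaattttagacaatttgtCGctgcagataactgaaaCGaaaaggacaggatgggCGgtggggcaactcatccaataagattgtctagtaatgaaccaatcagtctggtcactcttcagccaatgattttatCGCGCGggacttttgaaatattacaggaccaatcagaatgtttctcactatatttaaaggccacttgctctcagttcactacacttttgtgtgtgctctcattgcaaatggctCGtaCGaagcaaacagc
H2BC6: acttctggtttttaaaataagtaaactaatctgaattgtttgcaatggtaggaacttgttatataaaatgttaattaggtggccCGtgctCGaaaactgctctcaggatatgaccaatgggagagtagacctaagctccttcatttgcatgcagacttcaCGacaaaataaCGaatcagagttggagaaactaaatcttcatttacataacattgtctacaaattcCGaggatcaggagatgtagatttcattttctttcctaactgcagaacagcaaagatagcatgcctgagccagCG
H1-4: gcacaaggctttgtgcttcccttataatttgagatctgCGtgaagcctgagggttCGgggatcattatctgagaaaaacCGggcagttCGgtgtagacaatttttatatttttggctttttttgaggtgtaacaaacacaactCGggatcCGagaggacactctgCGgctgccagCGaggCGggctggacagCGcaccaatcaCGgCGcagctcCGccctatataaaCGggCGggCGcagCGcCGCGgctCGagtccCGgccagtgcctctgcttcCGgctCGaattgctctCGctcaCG
Among these windows H1-4 held 25 CG dinucleotides, H1-1 held 17, H1-6 held 12, H2AC14 held 11, H3C3 held 8 and H2BC6 held 6. A RefSeq promoter was found for 63 of the 68 members. Their median was 11 CG dinucleotides per 300 bases, with a range of 2 to 32, against a median of 14 over all 27305 promoters of the same length. The 8 members that rose at 120 h had a median of 8.5, with a range of 3 to 17. The 41 canonical members with an entry and at least 100 normalised counts in every DMSO library had a median of 12, with a range of 5 to 27, so the ranges overlapped widely.

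The windows carried the letters known from histone promoters. Searched on both strands, TATAAA stood in 41 member promoters (65.1%), against 12% of all promoters, and CCAAT in 53 (84.1%), against 35.7%. The octamer ATTTGCAT, the form bound by POU2F1 in H2B promoters, stood in 26 (41.3%), against 1.8% of all promoters, and in 14 of the 17 H2B promoters (82.4%). None of these words contains another. The windows of some members overlap, as for H2AC14 and H2BC14, and H3C4 and H2AC7 have the same window. A site can therefore be counted for several members. Of the 8 members that rose at 120 h, 6 held TATAAA, 7 held CCAAT and 4 held ATTTGCAT, close to the shares in the 41 highly expressed canonical members (65.9%, 85.4% and 43.9%). A match of letters is a description and not a bound site.

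Depth, estimated from the step between the lowest values, was 14427331 to 32908419 counts per library, and 1 count was worth 0.407 to 0.961 normalised units. Of the 68 histone genes, 56 reached 10 in at least 2 libraries and were tested. The 12 others were under 10 in every library: the germ-line type H1-7, H1-8, H2AC1 and H2BC1 and the canonical H2BC9, H2BC10, H3C6, H3C7, H3C8, H4C6, H4C7 and H4C11. H1-8, H4C7 and H4C11 were at 0 throughout. Decitabine 72 h replicate 2 stood apart from every other library. The median absolute log2 difference between the libraries of a group was 0.59 over all genes and 1.24 over the tested histone genes in decitabine 72 h, against 0.19 to 0.261 and 0.096 to 0.371 in the other groups. Results at 72 h are therefore given with and without it. The myeloid identity of the line was present: all 6 promyelocytic markers, among them MPO and ELANE, were detected in every group.

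**Figure D1:**
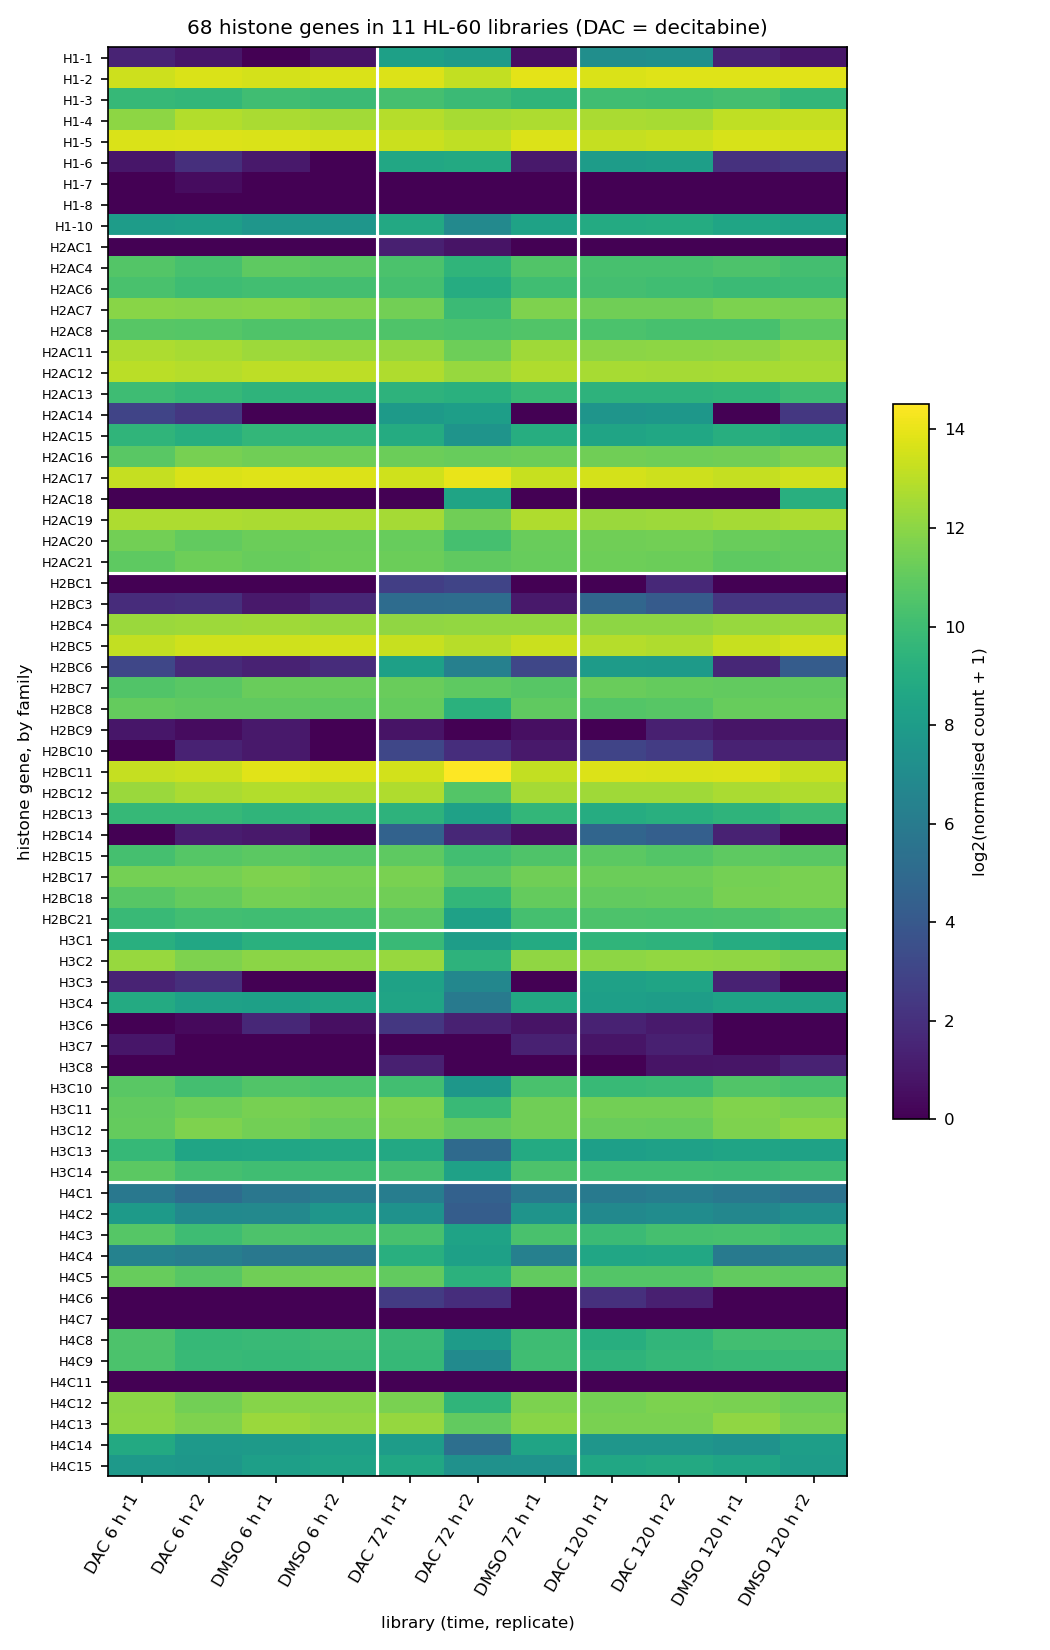
Heat map of the 68 histone genes (rows, by family) in the 11 libraries (columns, by time), coloured by log2(normalised count + 1); DAC is decitabine and r1 and r2 are replicates. Most rows keep their colour across the columns, H1-1, H1-6, H2AC14 and H3C3 brighten in the 4 late decitabine columns, and the decitabine 72 h r2 column is darker in most H3 and H4 rows.

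At 120 h, 8 histone genes rose with decitabine and no histone gene fell. The risers were the germ-line linker gene H1-6 and 7 canonical genes: H1-1, H2AC14, H2BC3, H2BC6, H2BC14, H3C3 and H4C4. They made up 14.3% of the 56 tested, a share near that over all 16152 genes tested, of which limma called 15.9% at a Benjamini-Hochberg adjusted p under 0.05 (9.91% higher and 6% lower). The median log2 difference was -0.13 over the tested histone genes and 0.07 over all genes tested. Of the 8 risers, all but H4C4 were tested only because of their late decitabine values, and all but H2BC6 and H4C4 stood under 10 in every DMSO library, so the calls of 7 are tied to that filter. At an unadjusted p under 0.05, H2BC5 and H3C12 were also lower. In bulk RNA, fewer cells of a type and less RNA per cell cannot be told apart.

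The germ-line linker gene H1-6, at chr6:26107412-26108135, had 264 and 284 normalised counts in decitabine 120 h cells, against 3.19 and 4.02 in DMSO 120 h cells. At 72 h it had 414 and 445 in decitabine cells, against 0.997 in DMSO cells, and at 6 h it had 0.862 and 2.85 in decitabine cells, against 0.961 and 0 in DMSO cells. All 4 late decitabine libraries stood apart from the other 7, and the replicates of each late group were close to each other. On the log2(value + 1) scale, which understates the change of genes with low values, the difference was 5.90 ± 0.48 (SE) at 120 h (limma, adjusted p = 0.000253) and 7.75 ± 0.59 at 72 h (adjusted p = 0.00149). H1-6 took 0.841 and 0.862% of the counts of the 9 H1 genes in decitabine 120 h cells, against 0.00859 and 0.0106% in DMSO 120 h cells, counts not being divided by gene length.

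The other germ-line members hardly appeared. H2BC1, a testis H2B, had 0 and 2.14 normalised counts in decitabine 120 h cells and 5.54 and 6.91 in decitabine 72 h cells, against 0 in every DMSO library. Its divergent neighbour H2AC1, whose start lies 215 bases away, had 1.38 and 0.691 in decitabine 72 h cells and 0 elsewhere. H1-7, a linker histone of spermatids, had 0.407 in decitabine 6 h replicate 2 alone, and H1-8, the linker histone of oocytes, was at 0 throughout. So within the germ-line class H1-6 alone reached the level at which a test was made. Of 15 further germ-line variants and protamine genes outside the rule, 11 were listed, none was tested, and their summed level was 4.48 to 4.99 in decitabine 120 h cells, against 3.19 to 3.22 in DMSO 120 h cells. H2BW1, H2BW2, H2AP, PRM1 and TNP1 were at 0 in every library.

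H1-1, a canonical linker histone known from few cell types, lies at chr6:26017032-26017787. It had 143 and 155 normalised counts in decitabine 120 h cells, against 1.6 and 0.804 in DMSO 120 h cells, and 297 and 245 in decitabine 72 h cells, against 0.498 in DMSO 72 h cells. At 6 h its highest value was 1.72. The log2 difference was 6.11 ± 0.46 at 120 h (limma, adjusted p = 0.000172) and 7.50 ± 0.57 at 72 h (adjusted p = 0.00149). Its neighbour H3C1, which starts 2664 bases away on the other strand, had 721 and 661 in decitabine 120 h cells, against 514 and 394 in DMSO 120 h cells, and was not called (log2 difference 0.62, adjusted p = 0.435).

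H1-10, the replication-independent linker gene, was expressed throughout and was not called: it had 468 and 494 in decitabine 120 h cells, against 370 and 310 in DMSO 120 h cells (log2 difference 0.51, adjusted p = 0.551). The main linker genes were not called. H1-2, the H1 gene with the highest mean, had 13060 and 14000 in decitabine 120 h cells, against 14080 and 15000 in DMSO 120 h cells, and H1-2 to H1-5 together had 30446 and 31951, against 36801 and 37637.

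**Figure D2:**
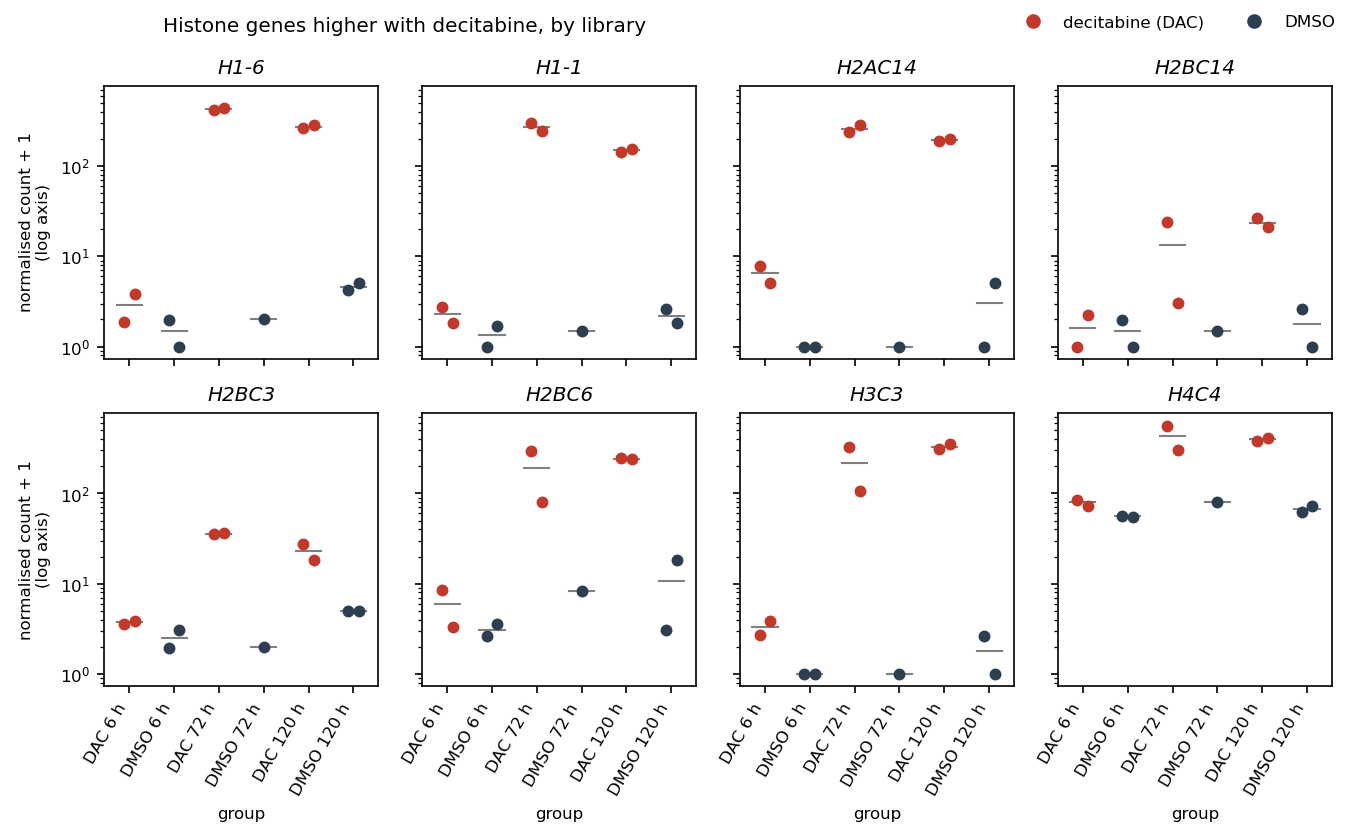
Normalised count + 1 (log axis) of the 8 histone genes that rose at 120 h, by group, with decitabine (DAC) in red and DMSO in dark blue; each point is a library and each line a group mean. The decitabine 72 h and 120 h points lie above the DMSO points of the same times in every panel.

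Among the H2A genes the call fell on H2AC14, at chr6:27814302-27814777, and its value is uncertain. It had 189 and 202 normalised counts in decitabine 120 h cells, against 0 and 4.02 in DMSO 120 h cells, and 235 and 281 in decitabine 72 h cells, against 0 in the DMSO 72 h library. The log2 difference at 120 h was 6.45 ± 0.69 (limma, adjusted p = 0.00078), and at 72 h the adjusted p was 0.0034, with no fold given against a gene listed at 0. Of the 50-base words of its transcript, the length of the reads, 83.7% also occur in H2AC13, an H2A gene of the same cluster part. H2AC13 had 658 and 656 in decitabine 120 h cells, against 714 and 985 in DMSO 120 h cells. The sum of both genes was 847 and 858 in decitabine 120 h cells, against 714 and 989 in DMSO 120 h cells, a ratio of means of 1.00, and at 72 h the ratio was 1.03. The summed level of the pair hardly differed where H2AC14 was called higher, and how reads were divided between the copies was not tested. H2AC17, the H2A gene with the highest mean, had 12180 and 10800 in decitabine 120 h cells, against 9743 and 11420 in DMSO 120 h cells.

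The H2B genes held 3 risers, none of which shares as much as 5% of its 50-base words with another gene. For H2BC6 that share is 4.57% of a transcript of 2585 bases, whereas its RefSeq gene is 470 bases long. The share within the shorter gene was not measured and may be larger. H2BC6, at chr6:26183761-26184230, had 247 and 239 normalised counts in decitabine 120 h cells, against 2.07 and 17.3 in DMSO 120 h cells. At 72 h it had 298 and 79.3 in decitabine cells, against 7.35 in DMSO cells. The decitabine libraries were far above the DMSO libraries at both times, though the DMSO 120 h libraries differed from each other several-fold, and the call was made at 120 h (log2 difference 5.02 ± 0.90, limma, adjusted p = 0.00808) and not at 72 h (4.21, adjusted p = 0.0975). The call at 120 h was lost without decitabine 120 h replicate 1 (adjusted p = 0.0623) or replicate 2 (adjusted p = 0.0573).

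H2BC3, at chr6:26043227-26043713, had 26.9 and 17.1 normalised counts in decitabine 120 h cells, against 3.99 and 4.02 in DMSO 120 h cells, and 34.6 and 35.3 in decitabine 72 h cells, against 0.997 in DMSO 72 h cells. The groups did not overlap, with log2 differences of 2.17 ± 0.47 at 120 h (limma, adjusted p = 0.0174) and 4.17 ± 0.58 at 72 h (adjusted p = 0.0117). Leaving out any of the 4 libraries of 120 h ended the call at 120 h, with adjusted p = 0.0655 to 0.143. H2BC14, at chr6:27815022-27815489, had 25.4 and 19.9 in decitabine 120 h cells, against 1.6 and 0 in DMSO 120 h cells. Its log2 difference was 3.87 ± 1.04 (limma, adjusted p = 0.038), the call was lost in 11 of 20 alternative settings, and at 72 h the decitabine libraries were apart at 22.8 and 2.07, against 0.498 in DMSO. The H2B gene with the highest mean, H2BC11, had 13990 and 13410 in decitabine 120 h cells, against 13730 and 9895 in DMSO 120 h cells.

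H3C3, at chr6:26045384-26045869, had the largest log2 difference of all tested histone genes at 120 h. It had 311 and 348 normalised counts in decitabine 120 h cells, against 1.6 and 0 in DMSO 120 h cells. At 72 h it had 329 and 105 in decitabine cells, against 0 in the DMSO library, and at 6 h it had 1.72 and 2.85, against 0 and 0. No 50-base word of its transcript, matched by its older symbol, occurs in another transcript. The log2 difference at 120 h was 7.68 ± 0.65 (limma, adjusted p = 0.000287), and at 72 h the adjusted p was 0.00344, with no fold given. H3C2, the H3 gene with the highest mean, had 4216 and 4623 in decitabine 120 h cells, against 4339 and 3645 in DMSO 120 h cells.

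H4C4, at chr6:26188710-26189112, was the riser with a clear level in DMSO cells. It had 379 and 415 normalised counts in decitabine 120 h cells, against 61.5 and 70.8 in DMSO 120 h cells, a ratio of means of 6.00. At 72 h it had 563 and 306 in decitabine cells, against 79.7 in DMSO cells, and at 6 h it had 84.5 and 72.4, against 54.8 and 54.3. The log2 difference was 2.57 ± 0.29 at 120 h (limma, adjusted p = 0.000972) and 2.36 ± 0.35 at 72 h (adjusted p = 0.0149). The H4 gene with the highest mean, H4C13, had 3107 and 3040 in decitabine 120 h cells, against 4449 and 3077 in DMSO 120 h cells.

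A group of histone genes stood at a clear level in late decitabine cells and near 0 in DMSO cells. Of 18 members under 10 in every DMSO library, 5 were at 10 or more in all 4 late decitabine libraries: H1-1, H1-6, H2AC14, H2BC3 and H3C3. That is 27.8% of the 18, against 243 (0.545%) of all 44626 genes under 10 in every DMSO library. Counting only genes above 0 in some library, it is 33.3% of 15 members, against 1.02% of 23780 genes. The share is a description, with neighbours in a cluster counted singly. It includes H2AC14, whose value is uncertain because 83.7% of its 50-base words also occur in H2AC13. Of the remaining quiet members, H2BC14 passed 10 in both decitabine 120 h libraries and 12 stayed under 10 in every library.

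**Figure D3:**
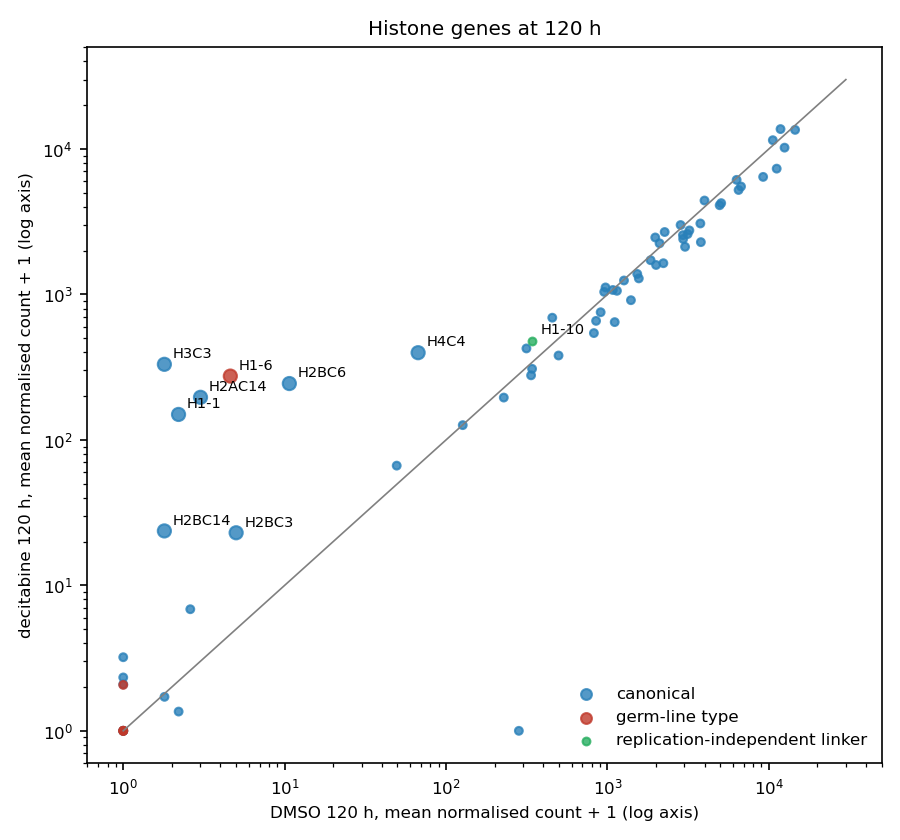
Mean normalised count + 1 of each of the 68 histone genes in decitabine 120 h cells (vertical, log axis) and in DMSO 120 h cells (horizontal, log axis), coloured by class, with larger points for the genes that rose; the line marks equal values. The 45 highly expressed canonical genes lie along the line, while the risers lie far above it at the left; the lone point at the bottom right is H2AC18, whose copy H2AC19 is near-identical.

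Against these, the highly expressed canonical genes lay close to their DMSO level at 120 h. For the 45 canonical members at 100 or more in every DMSO library, the log2 difference had a median of -0.22, with 33 below 0, and ran from -0.80 (H4C8) to 0.62 (H3C1). None was called by limma (2 at an unadjusted p under 0.05, H2BC5 and H3C12), and 39 of the 45 lay within 1.5-fold. The summed normalised counts of all canonical genes were 141060 and 140921 in decitabine 120 h cells, against 155833 and 159633 in DMSO 120 h cells, a ratio of means of 0.894. As a share of all counts of a library they were 1.02 and 1.07% in decitabine 120 h cells, against 1.08 and 1.07% in DMSO 120 h cells, a ratio of 0.973, so the size of the difference rests on the scaling. By family, the ratio of summed levels was 0.842 for H1, 0.956 for H2A, 0.875 for H2B, 0.894 for H3 and 0.903 for H4, and for H2A it turned to 1.04 as a share of the total. The risers H1-1, H2AC14, H2BC3 and H3C3 together made up 0.475 and 0.512% of the canonical histone counts in decitabine 120 h cells, against 0.00461 and 0.00554% in DMSO 120 h cells. The value of H2AC14 in that sum is uncertain, as given above.

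The absence of falling histone genes at 120 h depended on the spread shared with the 72 h libraries. With decitabine 72 h replicate 2 left out of the fit, 8 histone genes fell at 120 h by limma: H4C8 (log2 difference -0.80), H3C12 (-0.72), H2BC5 (-0.60), H2BC13 (-0.59), H2BC18 (-0.51), H2BC8 (-0.44), H2AC19 (-0.31) and H1-5 (-0.30). In that fit 10 rose, with H1-10 (0.51) and H3C1 (0.62) added. The 8 are 14.5% of the 55 tested there, against 15% of all genes lower, and the 10 are 18.2%, against 16% of all genes higher, so both shares lie near the background. The same counts, 10 higher and 8 lower, came from leaving out decitabine 72 h replicate 1 instead. H4C8, for example, had 552 and 737 normalised counts in decitabine 120 h cells, against 1112 and 1104 in DMSO 120 h cells, and H2BC5 had 7636 and 7009, against 9919 and 12430. H2AC18 was listed at 0 in all libraries but DMSO 120 h replicate 2, at 563, and decitabine 72 h replicate 2, at 351. All its 50-base words occur in H2AC19, and the sum of both was 5058 and 5388 in decitabine 120 h cells, against 6112 and 7436 in DMSO 120 h cells.

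At 72 h, 6 histone genes rose and none fell: H1-1, H1-6, H2AC14, H2BC3, H3C3 and H4C4. That is 10.7% of the 56 tested, against 2.19% of all genes tested (1.88% higher and 0.31% lower, limma). DMSO 72 h was a single library, whose spread was taken from the other groups. A fit of the 72 h libraries alone called none of these genes, as it called no gene of the whole table (0% of genes tested). The median log2 difference was -0.44 over the tested histone genes, against 0.09 over all genes. All 6 of these calls were also among the 8 at 120 h, with other libraries on both sides. All of them but H4C4 were tested only because of their late decitabine values, and both times share the same fitted spread. The overlap is therefore tied to the filter and is no separate support. At an unadjusted p under 0.05, H1-5 alone was lower.

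The negative median at 72 h was seen with decitabine 72 h replicate 2 and not with replicate 1. For the 45 highly expressed canonical genes, the log2 ratio of replicate 1 to the DMSO 72 h library had a median of -0.04 and 42 lay within 1.5-fold, whereas for replicate 2 the median was -1.12 and 14 lay within 1.5-fold. Replicate 2 stood lower by family in unequal measure, with a median log2 ratio to replicate 1 of -0.30 in H1, -0.88 in H2A, -0.80 in H2B, -2.15 in H3 and -1.88 in H4. Over these 45 genes 55.6% lay below -1, against 14.1% of all genes tested. The summed level of canonical H3 was 15493 in replicate 1 and 4751 in replicate 2, against 13590 in DMSO 72 h, and that of H4 was 14440 and 4714, against 13310. H2BC11 went the other way, with 11720 in replicate 1 and 23330 in replicate 2, against 9150 in DMSO 72 h.

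The decitabine 72 h libraries also differed from each other in other measures. The summed level of 20 S-phase replication genes was 53980 and 78860 in the decitabine 72 h libraries, against 53340 in DMSO 72 h, so that replicate 2 was the one away from DMSO. Mitochondrial mRNA made up 0.662% of counts in replicate 1 and 0.26% in replicate 2, against 0.386% in DMSO 72 h. It ran from 0.238 to 0.415% at 6 h and from 0.682 to 0.812% at 120 h. The gene FP671120.7 took 5.25% in replicate 1 and 0.106% in replicate 2, against 0.0943% in DMSO 72 h. It ran from 0.0424 to 0.794% at 6 h and from 3.89 to 10.9% at 120 h. In both measures replicate 1 was the farther from DMSO 72 h, and replicate 2 the farther from the 120 h libraries of both treatments. The part of these measures in the histone values was not tested. Without replicate 2, 7 histone genes rose and none fell at 72 h, which is 12.7% of 55, against 2.87% of all genes higher and 1.68% lower. H4C15 (log2 difference 1.25, limma, adjusted p = 0.0497) was added, and its value is uncertain, since 95.1% of its 50-base words occur in H4C14. The sum of both was 650.4 in replicate 1, against 522 in DMSO 72 h. Without replicate 1, 8 rose (14.3% of 56, against 16.8% of all genes) and 31 fell (55.4%, against 13% of all genes). H1-6 and H1-1, by contrast, had close values in both replicates, as given above.

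**Figure D4:**
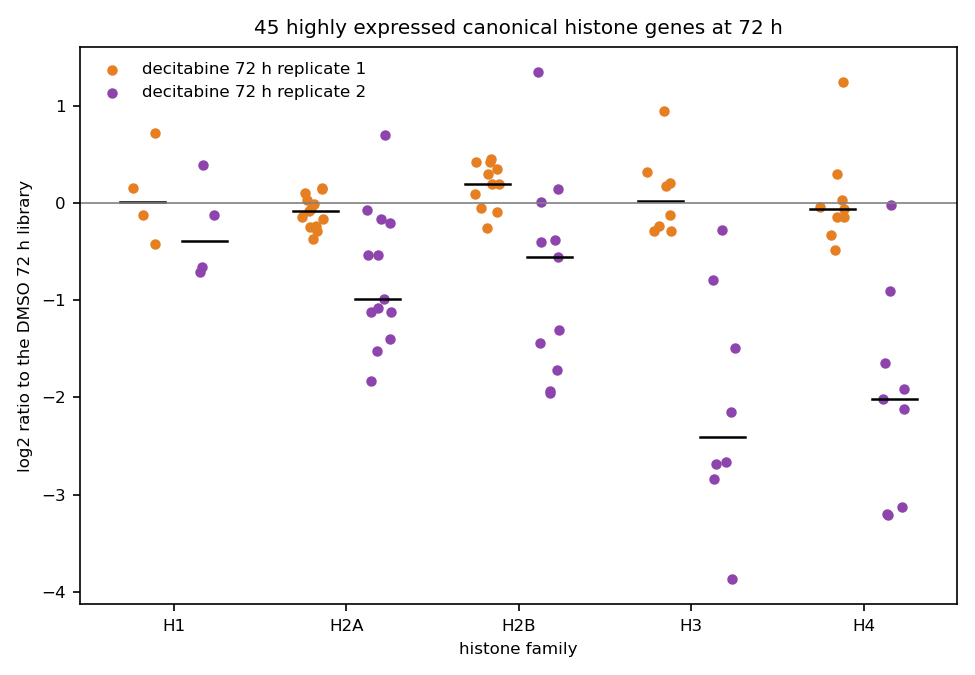
Log2 ratio of decitabine 72 h replicate 1 (orange) and replicate 2 (purple) to the DMSO 72 h library for the 45 highly expressed canonical histone genes, by family; each point is a gene and each line a family median. Replicate 1 lies near 0 in every family, and replicate 2 lies below it most in H3 and H4.

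At 6 h no histone gene was called, as no gene of the whole table was (0% of genes tested). At an unadjusted p under 0.05, limma gave 3 histone genes, with H2AC14 and H3C3 higher and H2BC7 lower. H2AC14 had 6.89 and 4.07 normalised counts in decitabine 6 h cells, against 0 in both DMSO 6 h libraries. All 45 highly expressed canonical genes lay within 1.5-fold at 6 h, with a median log2 difference of -0.07. Culture time alone gave no call between DMSO 120 h and DMSO 6 h (0% of all genes tested), where H1-4 (0.59) and H1-6 (1.71) had an unadjusted p under 0.05. The effect of decitabine was larger at 120 h than at 6 h for 4 histone genes, H1-1, H1-6, H3C3 and H4C4, which is 7.14% of the 56, against 5.9% of all genes tested (4.27% for a larger effect at 120 h). That count ran from 2 to 8 when single libraries were left out. The effect at 120 h and the effect at 6 h share no libraries. For H2AC14 that difference had an adjusted p of 0.06. Between 72 h and 120 h no effect differed at an adjusted p under 0.05 (0% of all genes tested), but without decitabine 72 h replicate 1 the effect was higher at 120 h for 25 histone genes (44.6% of 56, against 7.79% of all genes) and lower for 1 (1.79%, against 10.4%). H1-6 (-1.85) and H2BC3 (-2.0), at an unadjusted p under 0.05, had the smaller effect at 120 h.

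Across all 11 libraries, 8 of the 56 tested histone genes had every late decitabine library above all 7 others, against 12.7% of all genes tested, and these were the 8 risers of 120 h. All of them but H4C4 were tested only because of their late decitabine values, so this separation is tied to the filter and is no separate support. For H2BC14 it was 2.07 in decitabine 72 h replicate 2, against 1.6 in DMSO 120 h replicate 1. Another 6 tested histone genes had every late decitabine library below all others, against 8.92% of all genes: H1-5, H2AC7, H2AC13, H2AC19, H2BC13 and H3C10. The values of H2AC7 and H2AC13 are uncertain, as 98% and 62.3% of their 50-base words also occur in AL031777.3 and H2AC14. The sum of H2AC13 and H2AC14 overlapped, with 847 to 906 in late decitabine libraries and 682 to 1027 in the others. The sum of H2AC19 and its copy H2AC18 did not, with 3028 to 5976 against 6112 to 7436. H1-5 had 9811 and 10600 normalised counts in decitabine 120 h cells, against 12840 and 12190 in DMSO 120 h cells. H3C10 had 872 and 952, against 1514 and 1280.

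By position, 55 members lie in the chromosome 6 cluster between 25726063 and 27893891 (RefSeq, GRCh38.p14), 10 in the chromosome 1 cluster between 149782689 and 149887965, and 3 elsewhere. At 120 h, 8 of 45 tested members of the chromosome 6 cluster rose, 0 of 10 in the chromosome 1 cluster, and not H1-10, the tested member elsewhere. A gap of 846.8 kb divides the chromosome 6 cluster, with 6 risers among 25 tested genes before it and 2 among 20 after it. Over all genes tested, 9.91% were higher at 120 h, and whether the clusters or their parts differ was not tested. Several risers were neighbours. H2BC3 and H3C3 are divergent, with 1671 bases between their starts. H2AC14 and H2BC14 are divergent, with 245 bases between their starts, and H2BC6 and H4C4 lie 4480 bases apart. The neighbours of H1-6 and H1-1 were not called with all libraries in the fit: H4C3, 3075 bases from H1-6, had a log2 difference of -0.11, and H3C1, near H1-1 and given above, was called higher without decitabine 72 h replicate 2 (limma, adjusted p = 0.0393). Among the neighbours that were not called were H1-2, H2BC4 and H3C10.

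**Figure D5:**
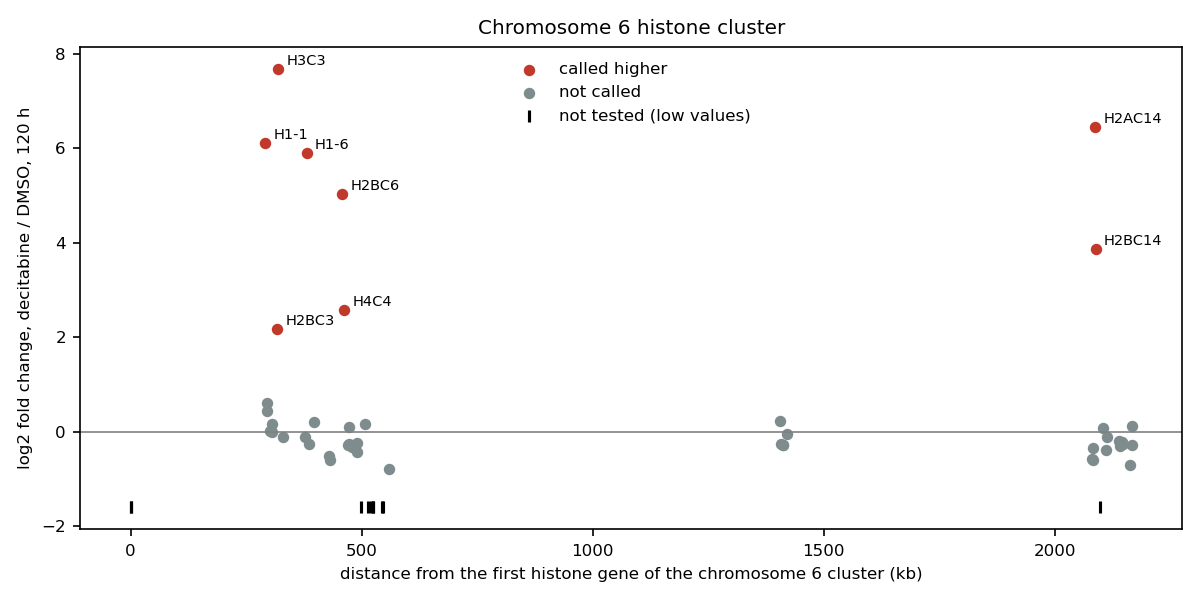
Log2 difference between decitabine and DMSO at 120 h for each histone gene of the chromosome 6 cluster (vertical), by distance in kb from the first histone gene of the cluster (horizontal); red points rose, grey points were not called and black ticks were not tested. The 8 red points lie among genes that were not called or not tested, and several are neighbours. Of them, 6 lie in the first part of the cluster and 2 close together in the last part.

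Genes of histone mRNA synthesis and decay were not called. Of 17 genes for histone transcription and 3′ end processing, limma called none at any of the 3 times, with 4 at an unadjusted p under 0.05 at 120 h, and the median log2 difference at 120 h was -0.20. SLBP, which binds the stem-loop, had 1501 and 1559 normalised counts in decitabine 120 h cells, against 1505 and 1591 in DMSO 120 h cells, and NPAT, the coactivator of histone genes, had 966 and 858, against 752 and 773. Of 8 genes for histone mRNA decay none was called, with 2 at an unadjusted p under 0.05 and a median of -0.06 at 120 h. Of 12 histone chaperone genes, 3 fell at 120 h and none at 72 h, with a median of -0.32 at 120 h. Over all genes tested, 9.91% were higher and 6% lower at 120 h, and 0.31% were lower at 72 h. IPO4, an importin that carries histones H3 and H4, had 298 and 254 in decitabine 120 h cells, against 1006 and 1298 in DMSO 120 h cells (log2 difference -2.05, limma, adjusted p = 0.00449). The FACT subunits SSRP1 (-1.07, adjusted p = 0.0476) and SUPT16H (-0.75, adjusted p = 0.0434) also fell, and lost the call in 10 and 11 of 20 alternative settings, among them leaving out any 120 h library. Of 8 tested replacement variants outside the clusters, H2AJ alone rose, with 9.63 and 13 in decitabine 120 h cells, against 0 in both DMSO 120 h libraries, and it was tested only because of its late decitabine values. Its call was lost without decitabine 120 h replicate 1 or either DMSO 120 h replicate. Without decitabine 120 h replicate 2 or decitabine 72 h replicate 2 it did not pass the filter and was not tested.

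The S-phase replication genes give the background for canonical histone mRNA. Their summed level was 38640 to 39000 in decitabine 120 h cells, against 50620 to 57130 in DMSO 120 h cells. Of the 20 genes, MCM2 (log2 difference -0.80, limma, adjusted p = 0.0294) and RFC3 (-0.68, adjusted p = 0.0163) fell, against 6% of all genes tested, and the median was -0.46. Both calls were lost on leaving out any 120 h library. Lower at an unadjusted p under 0.05 (limma) were 10 of the 20, against 2046 of all 16152 genes tested. The median of the 45 highly expressed canonical histone genes was -0.22 at the same time, and whether replication genes and histone genes differ was not tested.

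Markers of other cell types also differed with treatment. At 120 h all 5 eosinophil markers rose, with a summed level of 121500 to 132000 in decitabine cells, against 14440 to 15710 in DMSO cells. The 3 tested of 4 monocyte markers rose (242 to 243, against 35.2 to 58.3), as did the 2 tested of 5 lymphoid markers (355 to 434, against 73.6 to 74.9) and 2 of 3 tested germ cell markers, DAZL and MAEL (221 to 245 over all 5, against 7.48 to 12.6). The calls of CSF1R, CD14 and NKG7 were lost in 13, 5 and 4 of 20 alternative settings. No epithelial marker was called (28.8 to 29.7, against 13.2 to 22). No promyelocytic marker was called, with 1 at an unadjusted p under 0.05 (112600 to 123000, against 129600 to 185200). No marker of these lists was at 0 throughout, and their part in the histone values was not tested.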

How the data were processed

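RNA-seq of HL-60 cells was analysed from the deposited table of 60240 genes. The submitters' processing notes list limma, DESeq2, featureCounts, STAR and Salmon 1.2.1 and the build hg38, without saying which step used which. The deposited values are a normalised signal, estimated counts scaled per library, so no count model was run. The column heading, per the file headers, names 12 libraries above 11 values; read as starting at the symbol, libraries of a group differed by 0.299 (median absolute log2 difference), against 0.439 between groups, and read from the identifier by 0.429, against 0.426. Every result rests on the first reading.

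Values were taken as log2(value + 1). The 16152 genes that reached 10 in 2 or more libraries were fitted with limma 3.58.1 in R 4.3.3, with 1 mean per group over all 11 libraries, a trended empirical Bayes spread and 5 residual degrees of freedom. Tests were two-sided, with Benjamini-Hochberg adjustment over all genes tested and a call at an adjusted p under 0.05, and the scripts were tested on simulated data. Replicate numbers did not pair the samples (correlations of deviations -0.078 to 0.124). Positions and promoters came from RefSeq (GRCh38.p14), and shared 50-base words from GENCODE 29 transcripts. A further histone gene is not reported here. Members and lists were chosen with earlier results of these data known. Genes named with values were the germ-line members, H1-10, the member with the highest mean of each family, and the canonical genes called at 120 h or quiet in DMSO and at 10 or more with late decitabine; others named in the text were chosen after their values were seen.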

Additional observations from a re-analysis of the deposited data

Results flagged for a closer look

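For 4 histone genes the effect of decitabine differed between 120 h and 6 h, by a test of the difference itself (limma, Benjamini-Hochberg adjustment over all genes tested). The log2 difference between decitabine and DMSO was larger at 120 h by 5.98 for H3C3 (adjusted p = 0.01), 5.33 for H1-1 (adjusted p = 0.00398) and 4.97 for H1-6 (adjusted p = 0.00635). It was larger by 2.06 for H4C4 (adjusted p = 0.0273). At 6 h the cells had received the first dose only, so dose number and time cannot be told apart.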

How the results depend on the processing

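The calls of H1-1, H1-6, H2AC14, H3C3 and H4C4 at 120 h held in all 20 alternatives, and no called log2 difference of the 8 risers at 72 or 120 h changed direction. Fitting the compared groups alone gave 0 histone genes higher at 72 h (6 otherwise), where 0% of all genes were called. At 120 h that fit gave 7 lower (0 otherwise, 11.9% of all genes). For the effect at 120 h against 6 h it gave 8 higher and 2 lower (4 and 0 otherwise, 9.83 and 8.62% of all genes). With all DMSO libraries as control for 72 h, 4 histone genes were lower (7.35% of all genes). Leaving out single libraries gave 6 to 8 higher and 0 to 31 lower at 72 h, 5 to 10 higher and 0 to 8 lower at 120 h, 0 to 25 higher and 0 to 1 lower for the effect at 120 h against 72 h, and 2 to 8 higher and 0 to 2 lower for that at 120 h against 6 h. In the same fits the share of all genes called ran up to 16.8% higher and 13% lower at 72 h, 16 and 15% at 120 h, 7.79 and 10.4% for the effect at 120 h against 72 h, and 10.1 and 8.84% for that at 120 h against 6 h. The highest histone counts came with a decitabine 72 h library left out, the 5 higher at 120 h came without decitabine 120 h replicate 1 or 2, and the 2 higher for the effect at 120 h against 6 h came without either of these or decitabine 6 h replicate 1. The cause was not tested. The fit with a replicate block called 6 histone genes higher at 72 h, 8 at 120 h and 4 for the effect at 120 h against 6 h. Over all genes, 1.2, 9.57 and 3.62% were higher in that fit, and it changed no call of a named histone gene. Equal totals moved the median of all genes by -0.193 at 72 h, 0.118 at 120 h and 0.314 for the difference of these effects, and quantile normalisation by -0.135 at 72 h and -0.167 at 120 h. Under equal totals the median over the tested histone genes at 120 h was -0.01, and that of the 45 highly expressed canonical genes was -0.10. Rescaling without the gene FP671120.7, an alternative chosen after seeing the data, gave -0.16 for the 45. The filter of 10 normalised units in 2 libraries left 12 members untested, and 1 count was worth 0.407 to 0.961 units.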
